A study of Mus musculus with 2 samples.

Results

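The genes described here are 45 mouse genes of regulated exocytosis, the calcium-triggered fusion of secretory vesicles with the plasma membrane. They were named from the known machinery, but with earlier results of these data known. The list held 7 SNAREs of the target membrane, 5 SNAREs of the vesicle, 2 SNARE chaperones and 12 synaptotagmins. It also held 6 complexins and priming factors, 7 Rab GTPases and their effector, and 6 proteins of the vesicle membrane. All 45 matched 1 gene each among the 55536 genes of the GENCODE M21 annotation. The samples were adrenal glands of B6CASTF1/J female mice, an F1 hybrid strain, taken at 14 days of age and profiled by total RNA-seq. There was 1 group of 2 libraries, replicate 2 and replicate 1, each built from 300 ng of total RNA by a directional protocol with ERCC spike-in RNAs. No treatment, mutation or second condition was present, so the comparison that the design allows is between these libraries. The library description names 3 females for both, and the tissue description names a single female for replicate 2 and 3 females for replicate 1. Both carry 1 donor identifier, so separate animals could not be established.

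In regulated exocytosis a vesicle is brought to the plasma membrane by Rab GTPases, made ready by priming factors and fused by SNARE proteins, whose helices from the vesicle and the target membrane wind into 1 bundle. Synaptotagmins bind calcium and trigger the last step, and complexins hold or assist the SNARE bundle until then. In the adrenal gland this machinery is best known from the chromaffin cells of the medulla, which release catecholamines and chromogranins from dense-core granules, while the steroid hormones of the cortex leave cells without it. Many members have relatives that serve constitutive or non-neuronal secretion in other cell types.

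The libraries held 33844950 expected counts in replicate 2 and 37586172 in replicate 1, with 0.322% of these on the spike-ins in replicate 2 and 0.337% in replicate 1. Chromaffin markers were present, as 18 of 20 reached 1 TPM, a level corrected for transcript length and library size, in both libraries, and their summed level was 955 TPM in replicate 2, against 2063 TPM in replicate 1. All 12 adrenal cortex markers reached that level too, with sums of 4364 TPM in replicate 2, against 10408 TPM in replicate 1. Both libraries therefore carried the defining markers of the labelled organ. Markers of liver, skeletal muscle and T cells differed more widely than these, as did the erythroid markers given further below. The 12 liver markers summed to 20507 TPM in replicate 2, against 364 TPM in replicate 1, and the 10 skeletal muscle markers to 597 TPM in replicate 2, against 27.6 TPM in replicate 1. The 12 T cell and thymocyte markers summed to 2.71 TPM in replicate 2, against 78.7 TPM in replicate 1. Autonomic neuron markers, which share much of this machinery, were low in both libraries, at 16.3 TPM in replicate 2, against 17.0 TPM in replicate 1 over 12 genes, and Chat, the enzyme that makes acetylcholine, was listed at 0 in both. The part of these tissues in the differences given here was not tested.

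Of the 45 genes, 35 reached 1 TPM in both libraries (77.8%, against 53.4% of 21991 protein-coding genes), 2 did so in 1 library and 8 in neither. Their summed level was 262 TPM in replicate 2, against 408 TPM in replicate 1, and the level was lower in replicate 2 for 44 of 45. The level was also lower in replicate 2 for 79.4% of all genes tested, so differences are given after scaling by TMM, which sets the bulk of genes equal. On that scale 2 members were called higher in replicate 2 (background 28.8% of 16137 genes tested), 23 were called lower (background 24.3%), 19 were not called, and Syt6 was too low to test. A call means an adjusted p under 0.05 in an exact binomial test with Benjamini-Hochberg adjustment over all genes tested, and it compares the counting noise of these libraries, with no replicate of either. With spike-in scaling the split was 0 higher (background 15.6%) and 37 lower (background 52.8%). With total-count scaling it was 0 higher (background 14.0%) and 39 lower (background 58.3%). These scalings move the median of all genes tested by -0.28 and -0.34 on the log2 scale, so the background moves with the members. The median log2 difference was -0.31 over the 44 members, against 0.0014 over all genes tested, and 35 of 44 lay below 0, against 49.8% of all genes tested. No member was 2-fold higher (background 8.44%) or 2-fold lower (background 2.53%), and at a fold of 1.5 there was 1 higher (background 14.5%) and 10 lower (background 8.56%). In whole tissue, fewer cells of a type and less RNA per cell cannot be told apart.

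**Figure D1:**
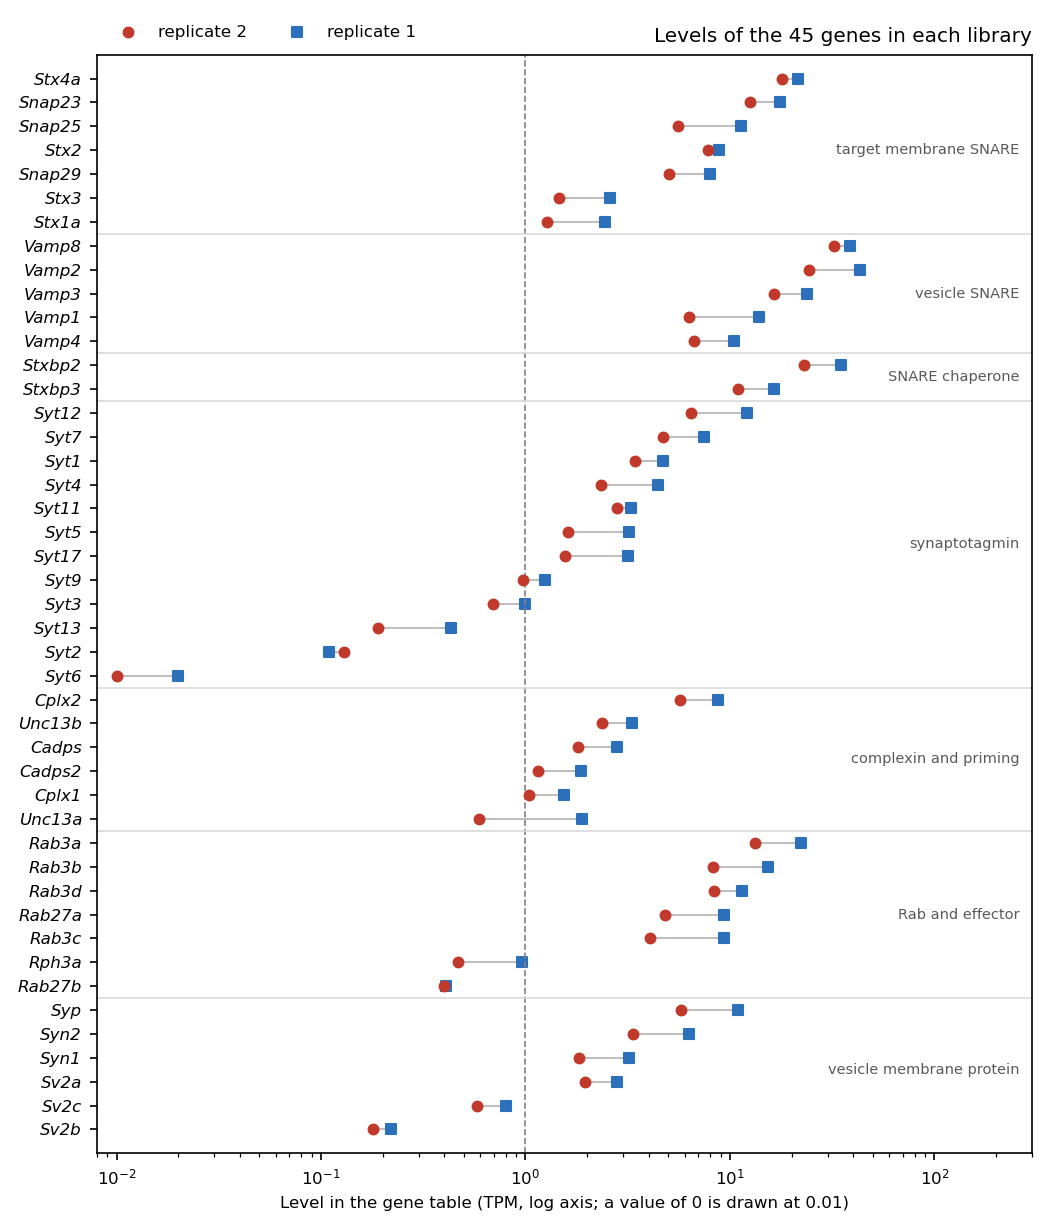
Level of each of the 45 genes in TPM (log axis) in replicate 2 (red circles) and replicate 1 (blue squares), grouped by role and ordered by mean level; the dashed line is 1 TPM, and a value of 0 is drawn at 0.01. The vesicle SNAREs Vamp8 and Vamp2 are at the top, and the synaptotagmins spread widest.

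The target membrane SNAREs give the plasma membrane side of the fusion bundle, and all 7 reached 1 TPM in both libraries. Stx4a, the mouse gene for syntaxin 4 of general plasma membrane traffic, was the highest with 17.9 TPM in replicate 2, against 21.4 TPM in replicate 1 (19.7 ± 2.5, SD, n = 2). Snap23, the widely expressed relative of Snap25, followed with 12.6 TPM in replicate 2, against 17.6 TPM in replicate 1. Snap25, the neuronal and endocrine form, lies at chr2:136713453-136782428 (mm10) and had 5.54 TPM in replicate 2, against 11.3 TPM in replicate 1. Stx2, a syntaxin of epithelial and other cells, had 7.8 TPM in replicate 2, against 8.82 TPM in replicate 1. Snap29, which serves several intracellular fusion steps, had 5.03 TPM in replicate 2, against 7.99 TPM in replicate 1. The neuronal Stx1a, the partner of Snap25 in synaptic and chromaffin granule release, was among the lowest with 1.27 TPM in replicate 2, against 2.45 TPM in replicate 1. Stx3, a syntaxin of apical membranes and ribbon synapses, had 1.46 TPM in replicate 2, against 2.60 TPM in replicate 1. On gene totals the order was thus led by forms of general use, and Stx4a exceeded Stx1a 14.1-fold in replicate 2 and 8.76-fold in replicate 1. Gene totals include transcripts without a complete coding sequence. In the second transcript table, complete coding sequences held 23.7% (replicate 2) and 24.8% (replicate 1) of the TPM of Snap23. For Snap25 they held 99.3% (replicate 2) and 98.4% (replicate 1).

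Among these 7 genes, 3 were called lower in replicate 2 (background 24.3%), 1 was called higher (background 28.8%) and 3 were not called. Snap25 was called lower, 1.60-fold after scaling (95% counting interval 1.39 to 1.85), on 281 counts in replicate 2, against 635 in replicate 1. Stx3 was called lower by 1.49-fold (1.17 to 1.91), and Snap29 by a log2 difference of -0.24. Stx4a was called higher with a log2 difference of 0.21 (exact binomial test, Benjamini-Hochberg adjusted p = 0.0153), and this sign turned to -0.069 with spike-in scaling and -0.13 with total-count scaling. Snap23 and Stx2 had log2 differences of 0.03 and 0.07 and were not called, and both were negative and called lower under those scalings. Snap25 relative to Snap23, a ratio that library scaling does not enter, was 0.440 in replicate 2 and 0.643 in replicate 1 (log2 ratio -0.91 ± 0.39, SD, n = 2). In the second transcript table the log2 ratio was -1.62 ± 0.45, so its size depends on the table. Both are ratios of gene totals. On complete coding sequences alone, Snap25 stood above Snap23 in both libraries in the second table. In the first table it did so in replicate 1 and not in replicate 2.

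Snap25 has an alternative exon 5 that is carried in 1 of 2 forms. Exon 5a gives the form that prevails early in brain development and exon 5b the form of the adult brain. They are shown because the coding sequences of the gene differ in these exons alone, from the GENCODE M21 transcripts on the plus strand of mm10, with the bases that differ between them in capitals.
Snap25 exon 5a, chr2:136769743-136769860: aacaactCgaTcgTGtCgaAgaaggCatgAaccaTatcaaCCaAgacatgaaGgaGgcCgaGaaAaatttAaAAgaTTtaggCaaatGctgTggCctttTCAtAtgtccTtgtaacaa
Snap25 exon 5b, chr2:136770057-136770174: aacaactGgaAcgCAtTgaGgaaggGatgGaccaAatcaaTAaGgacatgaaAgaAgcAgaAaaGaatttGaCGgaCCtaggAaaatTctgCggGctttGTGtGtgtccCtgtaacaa
The exons differ at 31 of 118 bases. Snap25-202, which carries exon 5a, took 45.2% of the coding TPM of the gene in replicate 2 and 45.5% in replicate 1, and Snap25-201, which carries exon 5b, took 54.8% (replicate 2) and 54.5% (replicate 1). These are from the second transcript table, whose estimated counts were 73.3 in replicate 2 and 162 in replicate 1 for Snap25-202, and for Snap25-201 they were 231 in replicate 2 and 493 in replicate 1. In the first transcript table the shares were 46.2% in replicate 2 and 41.0% in replicate 1 for exon 5a (43.6% ± 3.7, SD, n = 2). Snap25-202 is annotated with 1014 bases and Snap25-201 with 2116, so like levels per length rest on fewer counts for Snap25-202. Both forms were present at like levels in both libraries, while the level of the gene as a whole was called lower in replicate 2.

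The vesicle SNAREs were the most abundant role, with a summed level of 86.2 TPM in replicate 2, against 130 TPM in replicate 1. Vamp8, a SNARE of late endosomes and of granule release in exocrine and blood cells, lies at chr6:72385223-72390703 and had 32.4 TPM in replicate 2, against 38.9 TPM in replicate 1. Vamp2, the principal vesicle SNARE of synaptic vesicles and chromaffin granules, lies at chr11:69088490-69092384 and had 24.4 TPM in replicate 2, against 43.1 TPM in replicate 1. Their order differed between the libraries: Vamp8 was 1.33 times Vamp2 in replicate 2 and 0.902 times in replicate 1 (log2 ratio 0.13 ± 0.40, SD, n = 2). Vamp3, the broadly expressed relative also called cellubrevin, had 16.5 TPM in replicate 2, against 23.9 TPM in replicate 1. Vamp1, a close relative of Vamp2 that prevails in spinal cord and neuromuscular junctions, had 6.27 TPM in replicate 2, against 13.9 TPM in replicate 1. Vamp4, a SNARE of the trans-Golgi network and of immature granules, had 6.67 TPM in replicate 2, against 10.5 TPM in replicate 1.

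Of these 5 genes, 3 were called lower in replicate 2 (background 24.3%), 1 higher (background 28.8%), and Vamp3 was not called. Vamp1 was 1.64-fold lower (1.49 to 1.81), on 601 counts in replicate 2, against 1389 in replicate 1. Vamp2 was 1.37-fold lower (1.29 to 1.47), with an adjusted p of 1.92e-21 in the exact binomial test with Benjamini-Hochberg adjustment. Vamp4 was 1.24-fold lower (1.09 to 1.42), a call that was lost in the second transcript table. Vamp8 was called higher by a log2 difference of 0.18 (exact binomial test, Benjamini-Hochberg adjusted p = 0.0191), and the value turned to -0.10, not called, with spike-in scaling and to -0.16, called lower, with total-count scaling. It was not called in the second transcript table. Vamp2 exceeded Vamp3 1.48-fold in replicate 2 and 1.80-fold in replicate 1.

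The SNARE chaperones Stxbp2 and Stxbp3, of the Munc18 family, bind syntaxins and guide their assembly. Stxbp2, known for granule release in epithelial and blood cells, had 22.99 TPM in replicate 2, against 35.0 TPM in replicate 1. Stxbp3, the partner of syntaxin 4 in glucose transporter traffic, had 10.9 TPM in replicate 2, against 16.4 TPM in replicate 1. The ratio of Stxbp2 to Stxbp3 was 2.11 in replicate 2 and 2.13 in replicate 1, a log2 ratio of 1.09 ± 0.01 (SD, n = 2), but in the second transcript table the log2 ratio was 1.75 ± 0.03, so its size depends on the table. Stxbp3 was called lower by 1.18-fold (1.06 to 1.32). Stxbp2 was not called, at a log2 difference of 0.03, and became negative and called lower with spike-in scaling (-0.25) and total-count scaling (-0.31).

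**Figure D2:**
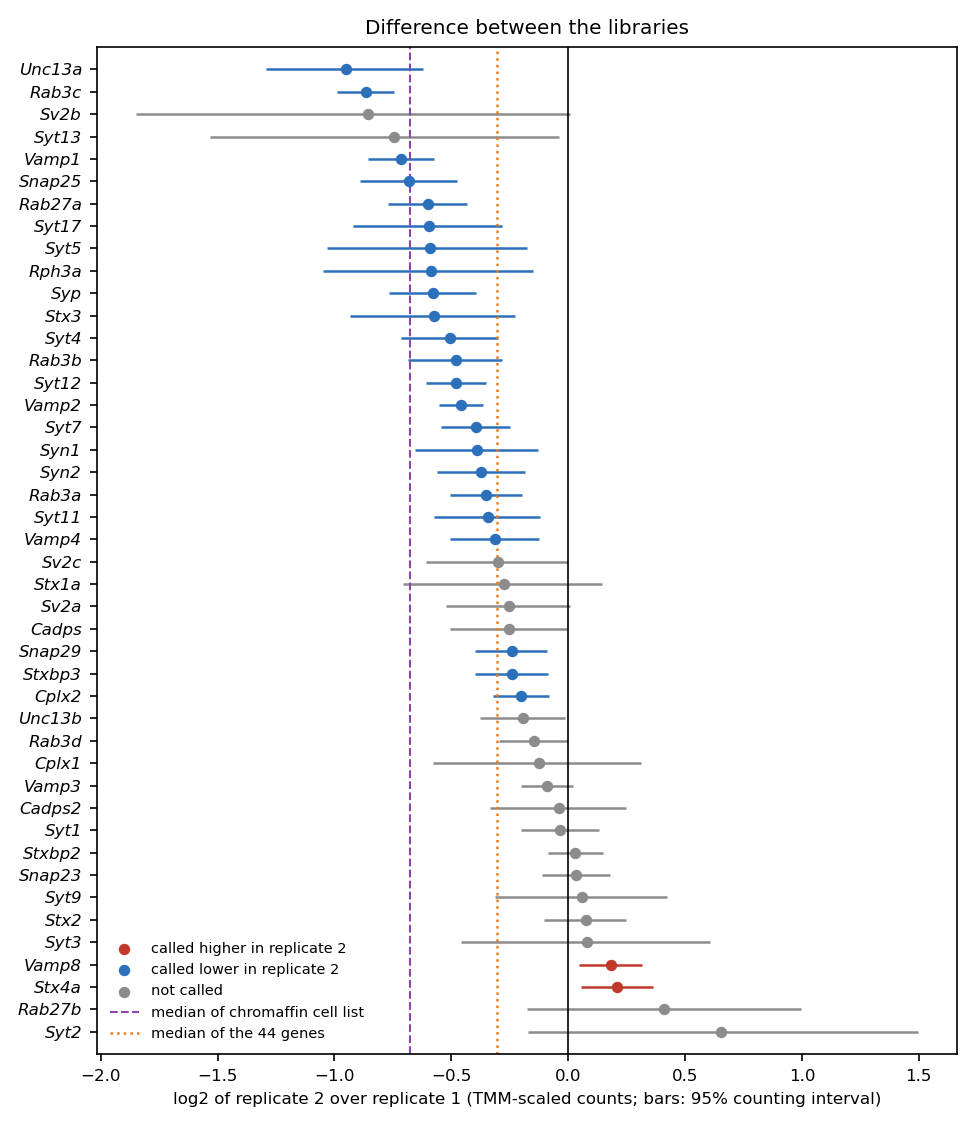
Log2 of replicate 2 over replicate 1 after TMM scaling for the 44 genes tested, ordered by size, with 95% counting intervals; red is called higher, blue called lower and grey not called. The dotted line is the median of these genes (-0.31) and the dashed line that of the 20 chromaffin markers (-0.68); 6 genes lie below the dashed line.

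The synaptotagmins, calcium-binding and calcium-independent members of a family of vesicle proteins, were all modest, as no member averaged 10 TPM, and 7 of 12 reached 1 TPM in both libraries. The highest was not one of the known calcium sensors but Syt12, a member whose domains lack the residues that bind calcium. It lies at chr19:4445908-4477447 and had 6.46 TPM in replicate 2, against 12.2 TPM in replicate 1. Syt7, the high-affinity sensor of dense-core granules, had 4.68 TPM in replicate 2, against 7.47 TPM in replicate 1. Syt1, the fast sensor of synaptic vesicles and chromaffin granules, had 3.43 TPM in replicate 2, against 4.68 TPM in replicate 1. Syt4, which does not bind calcium in its first domain, had 2.33 TPM in replicate 2, against 4.45 TPM in replicate 1. Syt11, its close relative, had 2.79 TPM in replicate 2, against 3.28 TPM in replicate 1. Within each library Syt7 exceeded Syt1, 1.36-fold in replicate 2 and 1.60-fold in replicate 1, and Syt1 exceeded Syt11, 1.23-fold in replicate 2 and 1.43-fold in replicate 1. Syt1 also exceeded Syt4 in both (log2 ratio of Syt4 to Syt1 -0.32 ± 0.34, SD, n = 2), a difference smaller than the spread. Syt4 and Syt11 stood in opposite order in the libraries.

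Syt5 had 1.62 TPM in replicate 2, against 3.20 TPM in replicate 1, and Syt17, a member without a transmembrane segment, had 1.56 TPM in replicate 2, against 3.17 TPM in replicate 1. Syt9, another fast calcium sensor, had 0.97 TPM in replicate 2, against 1.24 TPM in replicate 1, and Syt3 had 0.69 TPM in replicate 2, against 0.99 TPM in replicate 1. Both straddled or fell short of 1 TPM. Syt13 had 0.19 TPM in replicate 2, against 0.43 TPM in replicate 1, and Syt2, the fast sensor of brainstem and neuromuscular synapses, had 0.13 TPM in replicate 2, against 0.11 TPM in replicate 1. Syt6 had 0 counts in replicate 2, where the limit set by 0 is 3 counts or 8.89e-06% of the library, and 1 count in replicate 1.

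Of the 11 synaptotagmins tested, 6 were called lower in replicate 2 (background 24.3%), none higher (background 28.8%), and 5 were not called. Their median log2 difference was -0.39. Syt12 was 1.39-fold lower (1.28 to 1.53), from 731 counts in replicate 2 and 1436 in replicate 1. Syt7 was 1.32-fold lower (1.19 to 1.46). Syt4, Syt5, Syt11 and Syt17 were also called lower, with log2 differences between -0.34 and -0.60, and the call of Syt11 was lost in the second transcript table. Syt1 was not called, at a log2 difference of -0.03 with 511 counts in replicate 2 and 737 in replicate 1, and its scaled fold lay between 0.871 and 1.09. Against Chga, the chromogranin that fills chromaffin granules, Syt1 was 0.0145 in replicate 2 and 0.00922 in replicate 1, whereas Snap25 was 0.0234 in replicate 2 and 0.0222 in replicate 1. Snap25 thus kept nearly the same ratio to Chga in both libraries and Syt1 did not. Vamp2 over Chga was higher than both, at 0.103 in replicate 2 and 0.0848 in replicate 1, and its spread fell between theirs. The SD of the log2 ratio (n = 2) was 0.05 for Snap25, 0.20 for Vamp2 and 0.46 for Syt1.

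The complexins and priming factors make docked vesicles ready to fuse, and 5 of 6 reached 1 TPM in both libraries. Cplx2, the complexin of chromaffin cells, had 5.68 TPM in replicate 2, against 8.76 TPM in replicate 1, and Cplx1, the complexin most used at fast synapses, had 1.04 TPM in replicate 2, against 1.54 TPM in replicate 1. Cplx2 exceeded Cplx1 5.46-fold in replicate 2 and 5.69-fold in replicate 1. Unc13b had 2.36 TPM in replicate 2, against 3.32 TPM in replicate 1, and Unc13a, the priming factor of most central synapses, had 0.59 TPM in replicate 2, against 1.88 TPM in replicate 1. Cadps, which primes dense-core granules, had 1.81 TPM in replicate 2, against 2.79 TPM in replicate 1, and its relative Cadps2 had 1.15 TPM in replicate 2, against 1.87 TPM in replicate 1. Cadps over Cadps2 was 1.57 in replicate 2 and 1.49 in replicate 1.

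Of these 6 genes, Cplx2 and Unc13a were called lower (background 24.3%) and 4 were not called. Unc13a, at chr8:71624417-71671757, showed the widest difference of the 44 members tested, 1.94-fold lower in replicate 2 (1.54 to 2.45), from 103 counts in replicate 2 and 281 in replicate 1. It was 0.250 of Unc13b in replicate 2 and 0.566 in replicate 1 (log2 ratio -1.41 ± 0.83, SD, n = 2), the largest spread of the 24 pairs. Cplx2 was called lower with a log2 difference of -0.20. Unc13b, Cadps, Cadps2 and Cplx1 had log2 differences of -0.19, -0.25, -0.04 and -0.13, and Cadps was called in the second transcript table.

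The Rab GTPases mark secretory vesicles and bind effectors that dock them. Rab3a, the form of synaptic vesicles and chromaffin granules, was the highest with 13.2 TPM in replicate 2, against 22.3 TPM in replicate 1. Rab3b had 8.30 TPM in replicate 2, against 15.3 TPM in replicate 1, and Rab3d, the form of exocrine and mast cell granules, had 8.34 TPM in replicate 2, against 11.4 TPM in replicate 1. Rab3c, at chr13:110054187-110280996, had 4.07 TPM in replicate 2, against 9.35 TPM in replicate 1. Rab27a, which tethers dense-core and lysosome-related granules, had 4.82 TPM in replicate 2, against 9.34 TPM in replicate 1. Its relative Rab27b had 0.40 TPM in replicate 2, against 0.41 TPM in replicate 1, so that Rab27a exceeded it 12.1-fold in replicate 2 and 22.8-fold in replicate 1. The effector Rph3a, rabphilin, had 0.47 TPM in replicate 2, against 0.96 TPM in replicate 1.

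Of these 7 genes, 5 were called lower in replicate 2 (background 24.3%) and none higher (background 28.8%), with the lowest median of the roles at -0.48. Rab3c was 1.82-fold lower (1.68 to 1.98), from 785 counts in replicate 2 and 2016 in replicate 1, with an adjusted p of 1.61e-48 in the exact binomial test with Benjamini-Hochberg adjustment. Rab27a was 1.52-fold lower (1.35 to 1.71). Rab3a, Rab3b and Rph3a were called lower too, with log2 differences of -0.35, -0.48 and -0.59. Rab3d, at -0.15, and Rab27b, at 0.41 from 50 counts in replicate 2 and 53 in replicate 1, were not called. Mast cell markers, whose cells also use Rab3d and Vamp8, were low in both libraries, summing to 6.41 TPM in replicate 2, against 8.41 TPM in replicate 1 over 8 genes, and none of the 5 tested was called.

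Among the vesicle membrane proteins Syp, synaptophysin of synaptic vesicles and chromaffin microvesicles, was the highest with 5.73 TPM in replicate 2, against 11.0 TPM in replicate 1. Syn2, a synapsin that tethers vesicles to the cytoskeleton, had 3.35 TPM in replicate 2, against 6.27 TPM in replicate 1, and Syn1 had 1.82 TPM in replicate 2, against 3.20 TPM in replicate 1. Syn1 over Syn2 was 0.543 in replicate 2 and 0.510 in replicate 1. Sv2a, a glycoprotein of most secretory vesicles, had 1.95 TPM in replicate 2, against 2.79 TPM in replicate 1, and its relatives stayed below 1 TPM, Sv2c with 0.58 TPM in replicate 2, against 0.80 TPM in replicate 1, and Sv2b with 0.18 TPM in replicate 2, against 0.22 TPM in replicate 1. Syp, Syn1 and Syn2 were called lower (background 24.3%) and the 3 Sv2 genes were not. Syp was 1.49-fold lower (1.31 to 1.70).

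Beside these differences, the chromaffin list had 18 of 20 genes called lower (background 24.3%) and none higher (background 28.8%). Its median log2 difference was -0.68, with a range of -1.20 to -0.04. Its most abundant genes were Chgb, Chga and Pnmt, the enzyme that makes adrenaline. All 12 cortex genes were called lower, with a median of -0.83. Of the 44 members tested, 6 lay below the chromaffin median and 18 lay within 0.3 of it on the log2 scale. The members nearest to it were Snap25 (-0.68), Vamp1 (-0.71), Syt13 (-0.75, not called) and Rab27a (-0.60), and the farthest among those of at least 10 TPM were Stx4a and Vamp8. Of the 9 autonomic neuron markers tested, 4 were called higher in replicate 2 and none lower, with a median of 0.26. Macrophage markers, whose cells use Vamp8, Snap23 and Stx4a, summed to 46.3 TPM in replicate 2, against 32.1 TPM in replicate 1, with 6 of 7 called higher. The part of any of these cell types in the members' differences was not tested.

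**Figure D3:**
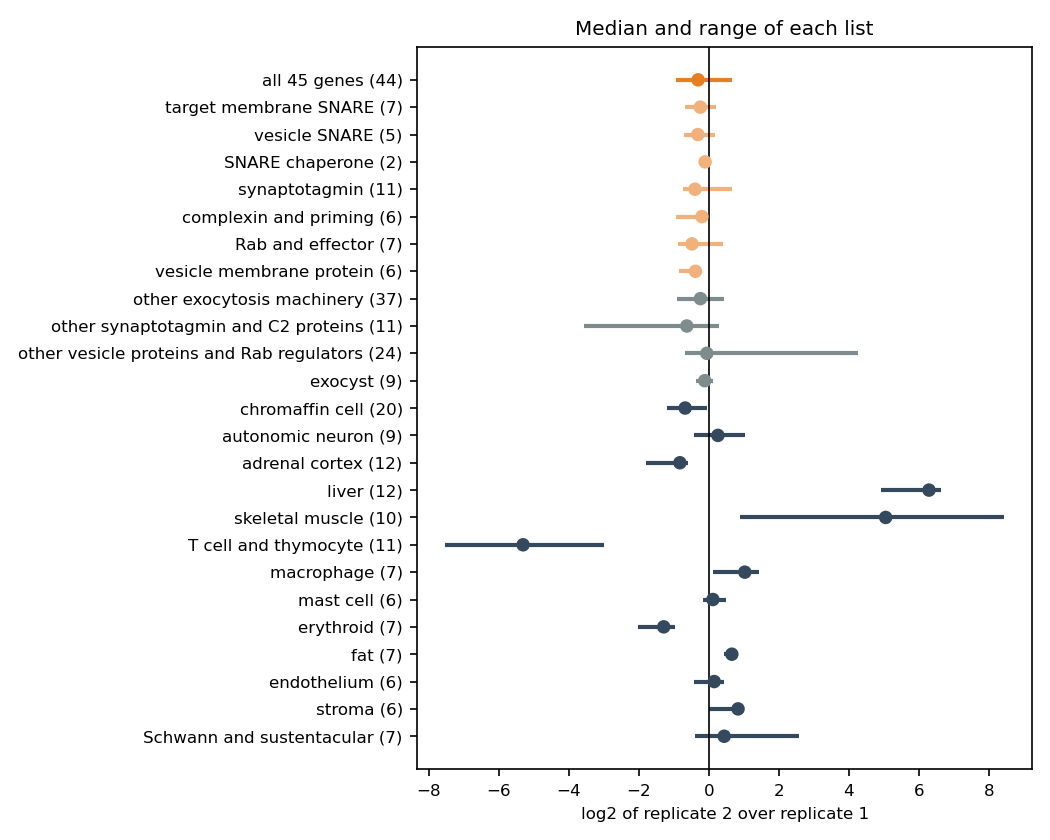
Log2 of replicate 2 over replicate 1 for the 45 genes (orange), their roles (light orange), the other exocytosis lists (grey) and the cell type lists (dark); points are medians, lines run from the lowest to the highest gene, and brackets give the number of genes whose mean count reached 10. The roles lie between -0.11 and -0.48, while the liver list stands at 6.29 and the T cell and thymocyte list at -5.30.

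The coding form of several other members could be read from the transcript tables. A coding form here is a complete coding sequence, with transcripts that share it added together, and shares are of all complete forms of the gene. Stx2 has 2 forms that differ in the C-terminal membrane anchor. Their last coding bases are shown because the forms differ there, from the GENCODE M21 transcripts on the minus strand of mm10. The bases after the shared exon are in capitals and the stop codon is left out.
Stx2-201, capitals at chr5:128987765-128987842: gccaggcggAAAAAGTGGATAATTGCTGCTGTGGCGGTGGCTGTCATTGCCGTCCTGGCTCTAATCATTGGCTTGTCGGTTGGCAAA
Stx2-202, capitals at chr5:128986356-128986430: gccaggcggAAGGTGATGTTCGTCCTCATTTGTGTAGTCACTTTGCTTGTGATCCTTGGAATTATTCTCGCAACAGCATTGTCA
Stx2-201 took 71.4% of the coding TPM in replicate 2 and 60.5% in replicate 1 in the second transcript table, and 65.7% (replicate 2) and 61.1% (replicate 1) in the first. The mean share was 66.0% ± 7.7 in the second table and 63.4% ± 3.3 in the first (SD, n = 2 each), and Stx2-201 led in both libraries and both tables. Whether the share differed between the libraries was not tested.

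Vamp1 also had forms with different coding ends, over a shorter stretch of 11 bases in Vamp1-203 and 14 in Vamp1-201. The ends are shown with the bases after the shared stretch in capitals, on the plus strand.
Vamp1-203, capitals at chr6:125219638-125219648: tgattgtaaGTAAGTATCGC
Vamp1-201, capitals at chr6:125220050-125220063: tgattgtaaTCTACTTTTTTACT
Vamp1-203 was the leading form with 67.2% in replicate 2 and 65.5% in replicate 1, and Vamp1-201 took 18.0% (replicate 2) and 21.4% (replicate 1). The remainder lay on Vamp1-202, with 14.8% in replicate 2 and 13.2% in replicate 1. In the first transcript table Vamp1-203 took 60.1% in replicate 2 and 48.9% in replicate 1, and again led. Vamp2-201 took 80.3% in replicate 2 and 82.1% in replicate 1.

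Syn1 and Unc13a had a different leading form in each library in both tables. Syn2 did so in the first table alone, where Syn2-201 took 36.3% in replicate 2 and 66.2% in replicate 1. In the second table Syn2-201 led in both libraries, with 55.1% in replicate 2 and 59.2% in replicate 1. The changes of leading form were not tested. Syn1-202 took 61.9% in replicate 2 and 39.8% in replicate 1 in the second table, and 56.0% (replicate 2) and 39.7% (replicate 1) in the first, with the remainder on Syn1-201. Unc13a-208 took 49.1% in replicate 2 and 60.1% in replicate 1, with the remainder on Unc13a-201. In replicate 2 the forms were thus nearly level, on 41.1 estimated counts for Unc13a-208 and 79.5 for Unc13a-201. Cadps-201 took 71.4% in replicate 2 and 45.2% in replicate 1, from 114 estimated counts in replicate 2 and 108 in replicate 1. Syt7-202, the leading form of Syt7, took 44.4% in replicate 2 and 54.2% in replicate 1. For Syt17 the tables disagreed: Syt17-201 took 93.4% in replicate 2 and 76.8% in replicate 1 in the second table, but 0% (replicate 2) and 16.5% (replicate 1) in the first, so the form of this gene is uncertain. In the first table, complete forms held only 11.5% (replicate 2) and 30.6% (replicate 1) of the TPM of Syt17. Most of the rest lay on Syt17-202, not counted as complete, with 84.1% in replicate 2 and 68.1% in replicate 1. Over the 35 members with at least 100 estimated counts in both libraries, the leading coding form was the same in both libraries for 33 and in both tables for 34. Complete forms held 23.7% of the TPM of Snap23 in replicate 2 and 24.8% in replicate 1 in the second table, but 51.1% (replicate 2) and 46.4% (replicate 1) in the first, so part of its level lies on transcripts without a complete coding sequence. For Stxbp2 they held 14.2% in replicate 2 and 10.6% in replicate 1 in the second table, and 7.91% (replicate 2) and 6.87% (replicate 1) in the first. Its transcript Stxbp2-201, annotated with 1780 coding bases, which is no whole number of codons, was not counted as complete and had 12.4 TPM in replicate 2, against 14.2 TPM in replicate 1 in the second table.

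**Figure D4:**
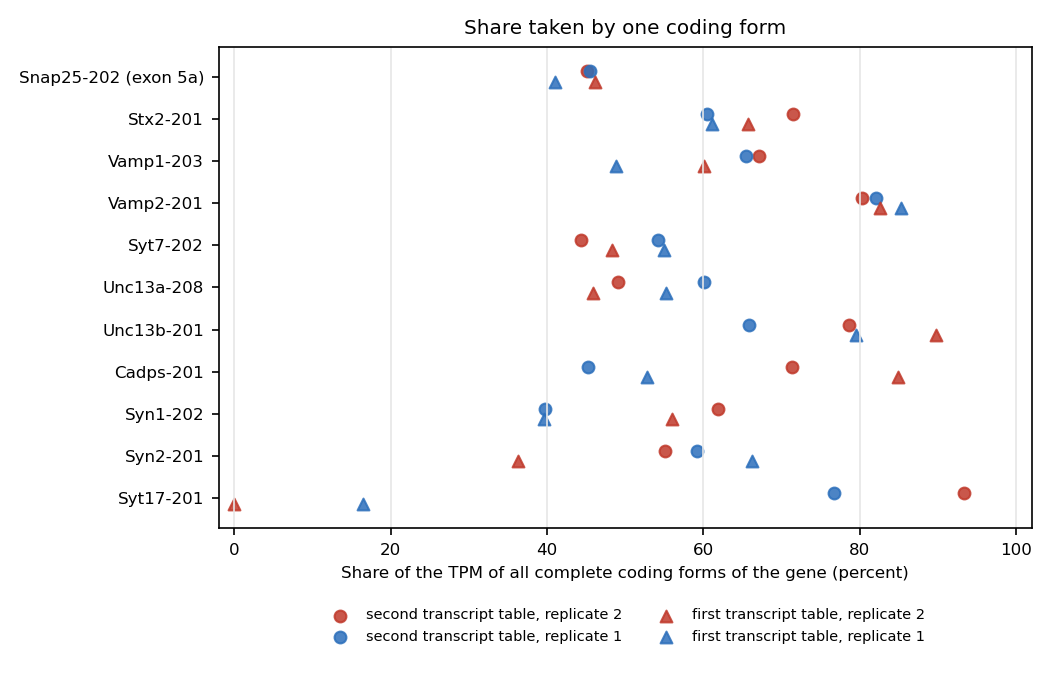
Share of the coding TPM, in percent, taken by 1 coding form of each of 11 genes, in replicate 2 (red) and replicate 1 (blue), in the second transcript table (circles) and the first (triangles). The exon 5a form of Snap25 has its lowest reading at 41.0% and its highest at 46.2%, while Syt17-201 lies at 0% (replicate 2) and 16.5% (replicate 1) in the first table and at 93.4% (replicate 2) and 76.8% (replicate 1) in the second. Complete forms held only 11.5% (replicate 2) and 30.6% (replicate 1) of the TPM of Syt17 in the first table.

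Reads of some members may be mixed with those of a neighbour, since 11 of 45 overlap a protein-coding gene on the opposite strand and whether counting used strand is not given in the sources used here. For 6 members the overlap includes exon bases of a neighbour of at least 1 TPM. Among these, Unc13a shares 3.92% of its exon bases with Colgalt1, Rab3a shares 1.30% with Mpv17l2, Snap29 1.74% with Pi4ka, Syn2 1.28% with Timp4 and Syn1 0.27% with Araf. Expected counts were whole to within 0.005 in both libraries for 43 of 45 members, the exceptions being Stxbp3 and Syt11, and over all genes for 92.6% in replicate 2 and 92.2% in replicate 1.

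The other genes of the pathway were read in 4 further lists. Of 40 other genes of the fusion and release-site machinery, 30 reached 1 TPM in both libraries. Of 36 tested, 20 were called lower (background 24.3%), 5 higher (background 28.8%) and 11 not called, with a median log2 difference of -0.24. The most abundant were Napa and Nsf, which take spent SNARE bundles apart, and the endosomal syntaxin Stx7. Nsf had 16.6 TPM in replicate 2, against 32.7 TPM in replicate 1 and was called lower with a log2 difference of -0.52. The release-site scaffolds Bsn (-0.90) and Pclo (-0.86) showed the largest differences called lower, and Vamp5 (0.43) and Erc1 (0.35) the largest called higher. All 9 exocyst subunits, which tether vesicles, reached 1 TPM in both libraries, with 4 called lower and none higher against the same backgrounds.

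Of 14 other synaptotagmins and related C2 domain proteins, 5 reached 1 TPM in both libraries, led by Doc2b, Sytl4 and Syt14. Of 7 tested, 2 were called lower, near the background of 24.3%. Sytl3, a Rab27 effector of blood cells, had 0.08 TPM in replicate 2, against 1.24 TPM in replicate 1, and Syt14 had 1.10 TPM in replicate 2, against 2.31 TPM in replicate 1. Of 26 other vesicle proteins and Rab regulators, 24 were tested, with 5 called lower, near the background, and 4 higher (background 28.8%). Sypl2, a synaptophysin relative of skeletal muscle, had 2.35 TPM in replicate 2, against 0.14 TPM in replicate 1, and Exph5, a Rab27 effector, had 1.15 TPM in replicate 2, against 0.10 TPM in replicate 1. The skeletal muscle markers differed the same way, with 10 of 10 called higher, and the T cell markers the same way as Sytl3, with 11 of 11 called lower. Their part in these genes was not tested.

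Promoter sequence was matched in RefSeq (GRCm38.p6) for 35 of the 45 genes, as 49 windows of 250 bases before to 50 after the start, and searched on both strands. The cAMP response element TGACGTCA, the binding motif of CREB factors, was in 2 of 49 windows (4.08%, against 1.79% of all 32851 windows). These belong to Syn1 and Stxbp3, and the 250 bases before the start are shown with the motif in capitals.
Syn1, chrX:20920919-20921168, minus strand: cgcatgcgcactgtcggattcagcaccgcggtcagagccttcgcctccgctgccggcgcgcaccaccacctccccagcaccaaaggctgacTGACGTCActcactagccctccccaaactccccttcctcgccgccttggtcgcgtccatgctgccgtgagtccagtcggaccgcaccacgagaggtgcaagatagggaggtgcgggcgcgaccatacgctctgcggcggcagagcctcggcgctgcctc
Stxbp3, chr3:108840503-108840752, minus strand: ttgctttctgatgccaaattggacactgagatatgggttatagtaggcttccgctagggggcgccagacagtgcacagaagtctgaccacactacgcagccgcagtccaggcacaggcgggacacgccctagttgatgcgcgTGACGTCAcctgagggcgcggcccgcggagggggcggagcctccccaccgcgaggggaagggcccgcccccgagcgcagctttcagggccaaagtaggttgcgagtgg
The motif begins 159 bases before the start of Syn1 and 108 bases before that of Stxbp3. The E-box CAGCTG was in 13 windows of 11 genes (26.5%, against 16.3% of all windows), and TGACG, a shorter part of the motif above, was in 13 windows of 13 genes (26.5%, against 20.8%). GGACAGC, part of RE1, the element bound by the neuronal repressor REST, was in 6 windows of Rph3a, Syt6 and Unc13a (12.2%, against 6.56%). A match describes letters in the window and not a bound site.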

How the data were processed

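The authors deposited, for each of 2 libraries, a gene table, 2 transcript tables and a note giving the assembly mm10 and GENCODE M21. Expected counts and TPM fill the deposited gene table and first transcript table, and the first transcript table adds the authors' percent of each gene by transcript. In the other deposited transcript table the columns are estimated counts and TPM. Per the deposited notes, a transcriptome alignment gave the gene and first transcript tables, and reads with an index gave the second. Which tools were run is not given in the sources used here. RNA was purified with a kit and libraries were directional, per the labels' protocols.

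Expected counts were rounded, and the gene table holds 96 ERCC entries and 26249 other entries that stayed out of all tests. Totals were 33844950 (replicate 2) and 37586172 (replicate 1), and a count of 0 allows 3 counts, or 8.89e-06% (replicate 2) and 8.01e-06% (replicate 1) of the 33735952 and 37459633 counts on GENCODE genes. Intervals and floors cover counting error only. Differences are log2 values, replicate 2 over replicate 1, with edgeR 4.0.16 TMM scaling, a prior count of 0.5 and mitochondrial genes left out. The 16137 genes whose mean count reached 20 were tested with the exact conditional binomial test (SciPy 1.17.1, two-sided, Benjamini-Hochberg threshold 0.05), and medians took genes whose mean count reached 10. With 1 group and no replicate on either side, no model between groups could be fitted, and p-values measure the counting noise of these libraries, not of animals. On data simulated with Poisson counting noise only (16164 genes), 74.2% of 1.5-fold and 96.9% of 3-fold changes were called the right way. There 2.92% of calls were false. That share does not carry over to the real libraries, which differ by more than counting noise, as 53.1% of 16137 genes were called. Pair ratios are of TPM. Transcript shares were checked against the deposited percent column and differed by at most 0.261 percentage points. DESeq2 1.42.0 size factors were an alternative. The members, the 19 other lists (225 genes) and the 24 pairs were chosen with earlier results of these data known. All members could be named, and of other lists the 3 genes of highest mean TPM and the 2 of largest called difference per direction. Protein sequences were not used here.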

Additional observations from a re-analysis of the deposited data

How the results depend on the processing

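The 23 genes called lower became 37 with spike-in scaling and 39 with total-count scaling or with Fisher's exact test against the rest of the library, and the 2 called higher became 0 under all 3 and 1 in the second transcript table. Under these scalings 4 and 6 members were at least 2-fold lower, with no count filter 1 was, and at a fold of 1.5 10 were lower and 1 higher. The median log2 difference of -0.31 became -0.59 with spike-in scaling, where the median gene stood at -0.28. It became -0.65 with total-count scaling, where the median gene stood at -0.35, and -0.65 on log2(TPM + 0.1), where it stood at -0.40. DESeq2 size factors changed no call. At a minimum of 10 TPM, 8 members were left in place of 35. Signs turned for Snap23 (-0.25 with spike-in and -0.31 with total-count scaling), Stx2 (-0.20 and -0.27), Stxbp2 (-0.25 and -0.31), Stx4a (-0.069 and -0.13), Vamp8 (-0.10 and -0.16), and, not called in any of these, Syt3 (-0.20 and -0.26) and Syt9 (-0.22 and -0.29). On log2(TPM + 1), where the median gene stood at -0.28, Stx4a stood at -0.24 and Vamp8 at -0.25. Snap23 (-0.45), Stx2 (-0.16), Stxbp2 (-0.58), Syt3 (-0.24), Syt9 (-0.19) and Rab27b (-0.010) also turned negative there. The log2 ratio of Vamp8 to Vamp2 ranged from -0.15 to 0.41 when either library was left out. Reading the second transcript table lost 3 calls and gained 1. The second table over the gene table gave a median log2 ratio of 0.46 over members, and 0.021 relative to the median gene. Leaving out either library gave 35 to 37 members at 1 TPM, a table ratio of 0.45 and 28 to 30 members with the same leading transcript in both tables. Grouping transcripts by coding sequence was chosen after seeing the data. The protein identities that were planned were not run. The causes of these changes were not tested, beyond the shift of the median gene. No paired analysis was possible because there is 1 group. Depth limits the genes under 1 TPM, such as Syt2, Sv2b and Syt13, whose intervals span over 2-fold.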

Other observations

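Transcripts classed as protein-coding held 82.6% of the members' TPM in replicate 2 and 82.5% in replicate 1 in the second transcript table, and retained-intron transcripts held 6.90% in replicate 2 and 6.60% in replicate 1. Complete coding forms held 39.3% of the TPM of Stx1a in replicate 2 and 19.2% in replicate 1, from 37.8 estimated counts in replicate 2 and 51.6 in replicate 1, so the level of its full-length form, 0.74 TPM in replicate 2 and 0.87 TPM in replicate 1, was closer between the libraries than that of the gene.

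The calls of the cell type lists not yet given stand beside a background of 24.3% of all genes called lower and 28.8% higher. The 7 erythroid markers summed to 2732 TPM in replicate 2 and 8791 TPM in replicate 1, with 7 of 7 called lower. The 7 fat markers summed to 2558 TPM in replicate 2 and 2288 TPM in replicate 1, with 7 of 7 called higher. The 6 stroma markers summed to 433 TPM in replicate 2 and 326 TPM in replicate 1 (5 called higher), and the 6 endothelium markers to 149 TPM in replicate 2 and 191 TPM in replicate 1 (3 called higher and 2 lower). The 7 Schwann and sustentacular markers summed to 26.5 TPM in replicate 2 and 16.9 TPM in replicate 1 (2 called higher). The 5 B cell markers summed to 8.16 TPM in replicate 2 and 12.9 TPM in replicate 1 (1 called lower), and the 5 platelet markers to 4.51 TPM in replicate 2 and 9.33 TPM in replicate 1 (1 called each way).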
